A study of Mus musculus with 18 samples.

Results

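The genes described here are 6 of the 50600 listed in the count table, chosen to cover the uptake of vitamin A and the nuclear receptors that act with it: *Stra6*, *Rara*, *Rarg*, *Rxra*, *Rxrb* and *Vdr*. *Stra6* was chosen from its measured values in these libraries, a strong fall in CD25 KO Tregs, so its values are given as a description, with no test. Each gene was found by its Ensembl identifier, and all 6 passed the filter on low counts in both tissues. The data are RNA-seq counts of FACS-purified Foxp3+ Tregs from 18 C57BL/6 mice. Thymic Tregs came from 5 “cured” CD25flox/Foxp3-YFP/Cre (CD25cKO) mice and 5 Foxp3/RFP reporter controls of the same age, 3–4 weeks. In the CD25cKO mice, Cre is made from the *Foxp3* locus and removes exon 4 of *Il2ra*, the gene of the IL-2 receptor α chain CD25, in cells that express *Foxp3*, and the mice had received WT splenocytes as newborns so that autoimmunity did not develop. Splenic Tregs were taken from 4 CD25flox/Foxp3eGFP-Cre-ERT2/R26Y mice, with 4 reporter mice of intact CD25 as controls. All 8 of these mice were given tamoxifen at 7–10 weeks of age and sampled 10–14 days later, and the Cre acts only in cells that express *Foxp3* at the time of treatment. The names CD25 KO and WT stand for the CD25-deficient libraries and for those of the reporter controls. Tissue, age, mouse model, tamoxifen and sequencing run change together, so their parts in any difference between thymus and spleen cannot be told apart. Within thymus, Cre and reporter also differ between CD25 KO and WT mice, and the splenocyte transfer is described only for the CD25 KO mice. Their parts in a thymic difference cannot be told apart from that of CD25.

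Vitamin A travels in the blood as retinol bound to a carrier protein. STRA6 is the membrane receptor for that carrier and lets retinol into the cell, where dehydrogenases turn it into retinoic acid. Retinoic acid binds the receptors RARα (*Rara*) and RARγ (*Rarg*), which sit on DNA as dimers with a retinoid X receptor, RXRα (*Rxra*) or RXRβ (*Rxrb*). The vitamin D receptor (*Vdr*) uses the same RXR partners. In T cells, retinoic acid is known for promoting Treg differentiation in the gut and for inducing gut-homing receptors.

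Libraries held between 17239774 and 32639570 counts. The targeted gene matched the labels in every library, although counts of *Il2ra* include the exons that were not removed: thymic *Il2ra* ranged over 524–682 CPM (counts-per-million, scaled by TMM) for the WT mice and 95.9–280 for the CD25 KO mice, and splenic *Il2ra* over 488–539 for WT and 168–208 for CD25 KO. *Foxp3* was also lower in CD25 KO, with 297 ± 26.5 against 503 ± 69.6 CPM in thymus (SD, n = 5) and 226 ± 15.8 against 330 ± 10.4 CPM in spleen (SD, n = 4). The 10 Treg and T cell markers examined were detected in every group. In thymus they summed to 4593–5324 CPM for WT and 4209–4664 CPM for CD25 KO, with 4 called lower (*Il2ra*, *Foxp3*, *Tnfrsf18*, *Cd3e*) and 0 higher. In spleen they summed to 4605–4811 CPM for WT and 4833–5468 CPM for CD25 KO, without overlap, with 4 called higher (*Ikzf2*, *Cd4*, *Cd3g*, *Cd3e*) and 2 lower (*Il2ra*, *Foxp3*). Thymic libraries differed in their balance of GC-rich and GC-poor genes (the median log2 deviation of the 20% of genes richest in GC minus that of the 20% poorest in GC), which ran from 0.02 to 0.45 for WT and from -0.48 to -0.03 for CD25 KO, without overlap. Mouse 5 of the thymic CD25 KO group had the lowest value. GC content was taken from the longest transcript of each gene, and ranked among the 18686 genes kept by the filter over all 18 libraries. *Rara*, *Rarg*, *Rxra*, *Rxrb* and *Stra6* lie at percentile 86.0 or above, and *Vdr* at percentile 67.9. The fold changes of these genes are therefore given with and without a GC correction where it matters. All levels below are CPM scaled by TMM over all 18 libraries.

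The start regions of 3 of the genes are printed to show the letters beside the expression data. *Stra6* and *Vdr* were taken because these genes had the largest differences. Of the 4 *Stra6* windows, the 1 printed is the only one with a match to the letters searched below. The *Rara* window printed is the one that holds a STAT-type palindrome. STAT5 is the transcription factor that acts downstream of the IL-2 receptor. Each window covers 250 bases before and 50 bases after a transcription start in RefSeq on GRCm38.p6, and is read 5′ to 3′ on the strand of the gene. Capitals mark matches to TTCNNNGAA (the STAT palindrome) or to the hexamers AGGTCA and AGTTCA, to which RAR, RXR and VDR bind as repeats, on either strand.
Stra6, chr9:58133825-58134124, plus strand: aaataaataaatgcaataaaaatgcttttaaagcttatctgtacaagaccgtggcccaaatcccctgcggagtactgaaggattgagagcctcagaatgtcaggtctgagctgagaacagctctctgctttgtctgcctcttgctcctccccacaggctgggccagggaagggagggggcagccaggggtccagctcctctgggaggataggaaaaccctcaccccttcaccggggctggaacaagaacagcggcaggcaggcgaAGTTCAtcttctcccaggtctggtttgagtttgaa
Rara, chr11:98939461-98939760, plus strand: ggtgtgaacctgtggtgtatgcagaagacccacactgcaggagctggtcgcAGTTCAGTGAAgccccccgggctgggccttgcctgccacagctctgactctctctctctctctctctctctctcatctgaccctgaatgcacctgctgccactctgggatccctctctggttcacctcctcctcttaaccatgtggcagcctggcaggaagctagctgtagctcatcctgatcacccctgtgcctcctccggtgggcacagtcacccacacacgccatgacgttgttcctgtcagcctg
Vdr, chr15:97908247-97908546, minus strand: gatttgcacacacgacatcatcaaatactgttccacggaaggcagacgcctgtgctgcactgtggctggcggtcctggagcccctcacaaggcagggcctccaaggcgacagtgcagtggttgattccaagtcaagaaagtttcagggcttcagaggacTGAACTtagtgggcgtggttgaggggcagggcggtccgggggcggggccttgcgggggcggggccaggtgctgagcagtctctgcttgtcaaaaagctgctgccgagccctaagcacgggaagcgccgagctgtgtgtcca
RefSeq lists 15 such windows for the 6 genes, 4 of them for *Stra6*, 4 for *Rara*, 2 each for *Rarg*, *Rxra* and *Rxrb*, and 1 for *Vdr*, and the counts do not tell which start is used in Tregs. TTCNNNGAA was found in 1 of the 15 windows, that of *Rara* above as TTCAGTGAA, where it overlaps an AGTTCA, and in 8.30% of all 32851 windows. AGTTCA was found in 3 of the 15, those printed, and in 14.0% of all windows. AGGTCA was found in 3 of the 15, of *Rara*, *Rarg* and *Rxra*, and in 16.3% of all windows. Direct repeats of AGGTCA with 5 bases between were found in 0 of the 15 and in 3 of all windows, those of AGTTCA with 5 bases between in 0 and 8, and those of AGTTCA with 3 bases between in 0 and 0. These matches describe letters in short windows and are not binding sites.

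*Stra6* (ENSMUSG00000032327.14) lies on the plus strand of chromosome 9, at chr9:58063788-58153996 of GRCm38. In thymic WT Tregs it was present at 9.45, 8.20, 8.85, 7.86 and 7.86 CPM in mice 1 to 5, from 172 to 197 counts. In thymic CD25 KO Tregs it was present at 0.50, 1.48, 1.36, 1.17 and 0.735 CPM, from 10 to 32 counts. The groups lay far apart: the lowest WT value was 5.33 times the highest CD25 KO value, and the mean fell from 8.44 ± 0.69 to 1.05 ± 0.42 CPM (SD, n = 5), which left 12.4% of the WT level. Some transcript was counted in every CD25 KO library. As RNA was measured in bulk, fewer cells with the transcript and less transcript per cell cannot be told apart.

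In splenic WT Tregs, *Stra6* was present at 5.93, 7.62, 6.34 and 5.99 CPM, from 148 to 208 counts. Splenic CD25 KO Tregs held 1.94, 1.23, 1.37 and 1.33 CPM, from 34 to 51 counts. The groups again lay apart, with the lowest WT value 3.06 times the highest CD25 KO value. The mean fell from 6.47 ± 0.79 to 1.47 ± 0.32 CPM (SD, n = 4), and 22.7% of the WT level remained. The fitted log2 fold change was -2.98 in thymus, rank 23 from the lowest of 16986 genes tested, and -2.14 in spleen, rank 9 from the lowest of 17463. Leaving out each mouse in turn kept it between -3.14 and -2.80 in thymus and between -2.30 and -2.05 in spleen, and the GC correction moved it to -2.83 and -2.11. These fold changes are the values the gene was chosen on.

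**Figure D1:**
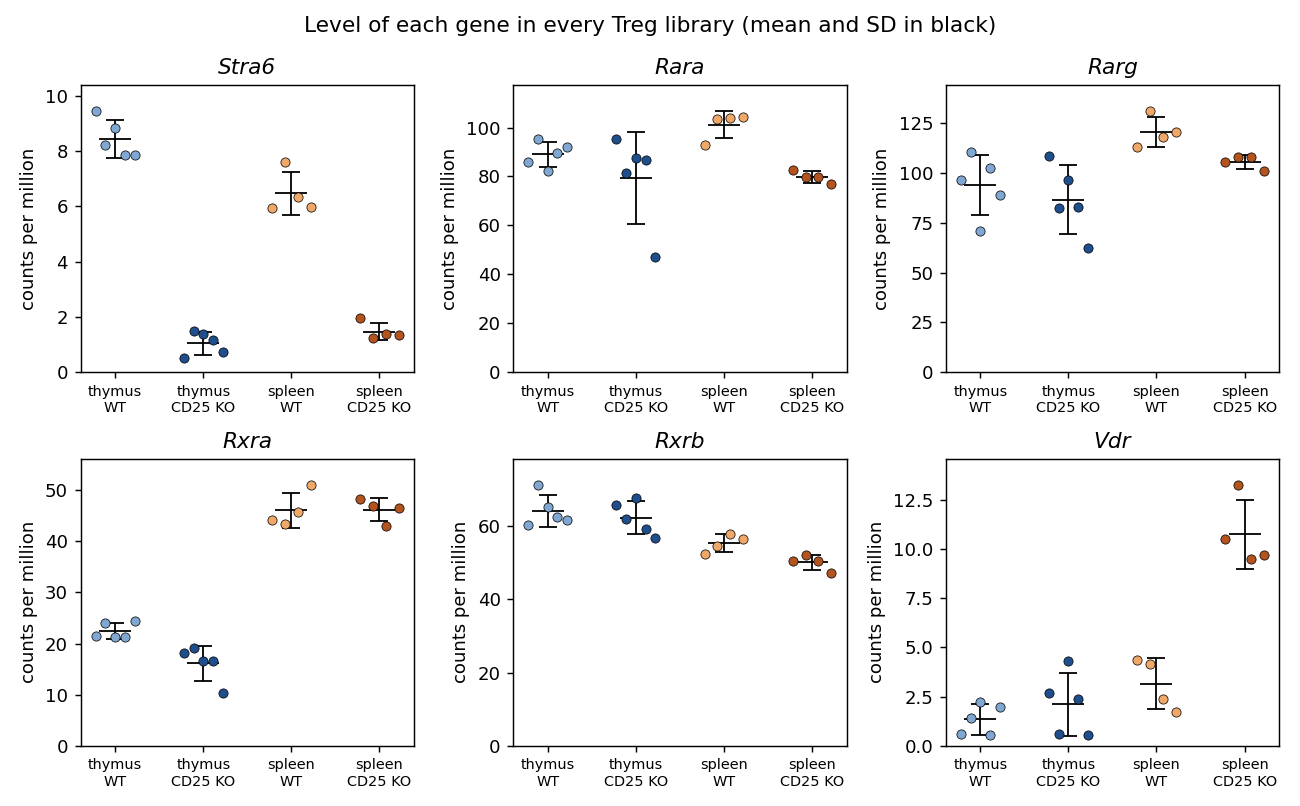
CPM of each of the 6 genes in every Treg library (y axis, from 0) by tissue and genotype (x axis). Points are mice, black bars the mean and SD (n = 5 in thymus, 4 in spleen). *Stra6* was 9.45 CPM at most in WT and 1.94 CPM at most in CD25 KO, splenic *Vdr* ran from 1.73 to 4.38 CPM in WT and from 9.49 to 13.3 CPM in CD25 KO, and *Rxra* had a mean of 22.5 CPM in thymic and 46.1 CPM in splenic WT.

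Genes around *Stra6* did not supply its counts through shared exons. *Ccdc33*, on the opposite strand, overlaps its span with 0 shared exonic bases and held 0–27 counts a library, and *Gm16131*, also within the span, held 0. *Gm16130*, the nearest gene to the left, held 0–7 counts, and *Islr*, 2271 bases to the right, held 2–54. Thymic *Islr* was at 1.74 ± 0.55 CPM for WT and 1.12 ± 0.36 CPM for CD25 KO (SD, n = 5), a difference that did not pass the test (edgeR adjusted p = 0.121). In spleen it had 0.774 ± 0.32 and 0.302 ± 0.25 CPM (SD, n = 4; edgeR adjusted p = 0.0717). *Cyp11a1*, the enzyme of the first step of steroid synthesis, was chosen for mention after its values were seen, as another gene of this part of chromosome 9. It fell in thymus from 2.99 ± 0.54 to 0.797 ± 0.54 CPM (SD, n = 5; log2 fold change -1.85, edgeR adjusted p = 0.00685), and in spleen no library held more than 8 counts of it. No exon of the other 5 genes is shared with another gene.

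The genes with the pattern most like that of *Stra6* were found by the root mean square difference between log2 CPM profiles, each centred on its own mean over the 18 libraries. *Stra6* was chosen for its fall in these same libraries, so genes that also fall in CD25 KO lie near it by that choice. The order is therefore a description only. The nearest of 18686 genes was *Il2ra* itself, the gene that was deleted, at 0.534 log2 units, against a median of 1.41 over all genes. *Gm37881* followed at 0.681. It is a short transcript that lies inside the span of *Il2ra* on the same strand and shares 0 exonic bases with it. *Lrrc32* came next at 0.730. It encodes GARP, which holds latent TGF-β on the Treg surface, and it ran from 304 ± 41.9 to 123 ± 52.3 CPM in thymus (SD, n = 5) and from 278 ± 17.8 to 111 ± 12.9 CPM in spleen (SD, n = 4). *Arhgef15* was at 0.736 with 0 to 17 counts a library, and *Lrrc66* at 0.775 with 4 to 39 counts. The other 5 genes described here were farther from *Stra6*, with 1.24 for *Rara*, 1.31 for *Rarg*, 1.33 for *Rxrb*, 1.35 for *Rxra* and 2.23 for *Vdr*. *Stra6* and *Il2ra* did not rank the thymic CD25 KO mice alike: *Il2ra* was at 280 and 234 CPM in mice 2 and 4 and at 95.9–105 in the other 3, while *Stra6* was highest in mice 2 and 3.

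**Figure D2:**
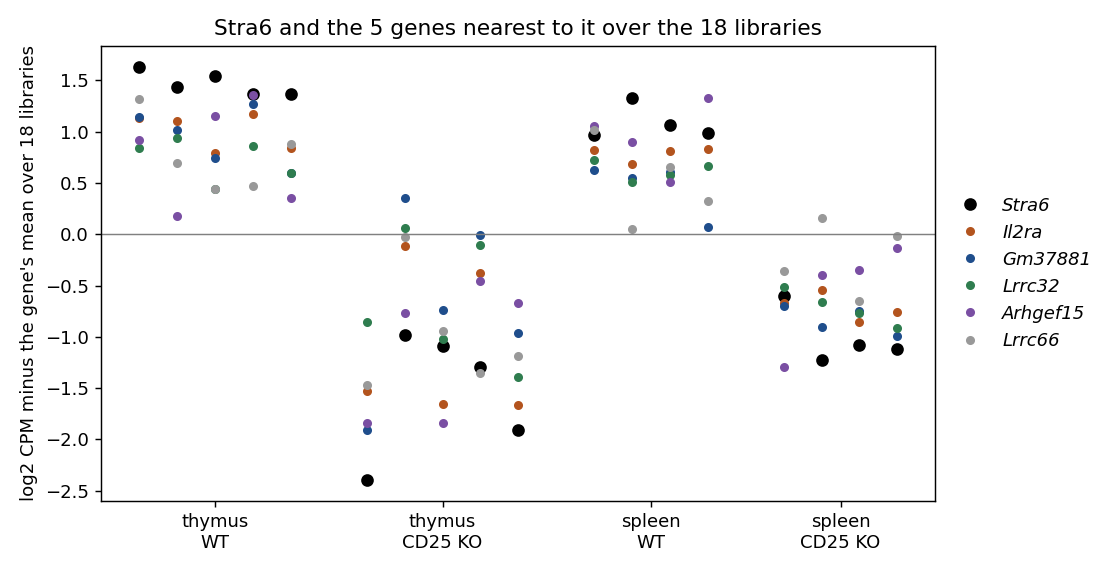
Log2 CPM of *Stra6* (black) and the 5 genes nearest to it, each minus its own mean over the 18 libraries (y axis), in every library, ordered by group and mouse (x axis). All 9 WT libraries lie above the mean and all 9 CD25 KO libraries below it for *Stra6*, which was chosen for this fall. *Il2ra*, the deleted gene, is the nearest at a root mean square distance of 0.534.

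The 5 receptor genes were not chosen for a fall and were tested, though the set was made with earlier results of these data known. In thymus, 0 of the 5 passed edgeR's quasi-likelihood test at FDR < 0.01, where 6.16% of the 16986 genes tested did. At an unadjusted p below 0.05 the count was 1, *Rxra*, where 37.9% of all genes were below it, and DESeq2 called the same 1 gene and 16.3% of all genes. In spleen, 2 of the 5 passed, where 9.45% of 17463 genes did: *Vdr* rose and *Rara* fell. *Rara*, *Rarg*, *Rxrb* and *Vdr* had an unadjusted edgeR p below 0.05 there, where 29.9% of all genes did. DESeq2 called the same 2 that passed in edgeR and 12.3% of all genes. The groups did not overlap for 1 of the 5 in thymus (*Rxra*), where this held for 16.4% of all genes tested, and for 4 of the 5 in spleen, where it held for 20.4%. When the differences between CD25 KO and WT in the tissues were compared with each other, 0 of the 5 passed in edgeR, where 6.98% of 18686 genes did. In that comparison, as in thymus, *Rxra* alone had an unadjusted p below 0.05, where 32.8% of all genes did, and DESeq2 called 0 of the 5 and 11.7% of all genes.

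*Vdr* (ENSMUSG00000022479.15, chr15:97854425-97910630, minus strand) encodes the receptor for active vitamin D. Splenic WT Tregs held 4.38, 4.14, 2.36 and 1.73 CPM of *Vdr*, from 44 to 113 counts. Splenic CD25 KO Tregs held 10.5, 13.3, 9.49 and 9.69 CPM, from 250 to 368 counts. Every CD25 KO mouse was above every WT mouse, with the lowest CD25 KO value 2.17 times the highest WT value. The mean rose 3.41-fold, from 3.15 ± 1.31 to 10.7 ± 1.75 CPM (SD, n = 4), with a log2 fold change of 1.76 ± 0.22 (SE; edgeR adjusted p = 4.54e-05). Leaving out any mouse kept the log2 fold change between 1.56 and 1.95 and the call. When the spread was estimated over all 18 libraries, the log2 fold change was the same and the call was lost (adjusted p = 0.0137).

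Markers of some other cells moved in the same direction in spleen, where edgeR called 9.45% of all genes tested. B cell markers summed to 451–564 CPM in WT and 614–744 in CD25 KO, with 2 of 5 tested called higher (*Cd22*, *Ighm*) and none called lower. Markers of macrophages, monocytes and dendritic cells summed to 42.7–46.5 and 52.2–56.7 CPM, with 1 of 6 called higher (*Lyz2*). NK cell markers summed to 4.71–8.02 and 10.9–16.2 CPM, with 1 of 2 called higher (*Klrb1c*), while the defining NK genes *Ncr1* and *Klra8* had no count in any splenic library. Immature thymocyte markers summed to 27.2–33.1 and 33.5–36.8 CPM, with none called. Sums overlapped for CD8 T cells (7.80–9.45 and 8.33–10.8 CPM), thymic epithelium (6.41–10.2 and 8.35–12.6) and erythroid cells (5.35–7.21 and 4.98–7.10), with none called. The part of other cells in the rise of *Vdr* and in the splenic fall of *Rara* was not tested.

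In thymus, *Vdr* was low and varied widely within each group. WT mice held 0.582, 1.40, 2.25, 0.549 and 1.96 CPM, and CD25 KO mice held 2.70, 0.599, 4.30, 2.39 and 0.525 CPM, from 10 to 79 counts in all. In CD25 KO, 3 mice lay above every WT mouse and 1 lay below every WT mouse, so the groups overlapped. The log2 fold change was 0.64 ± 0.55 (SE; edgeR adjusted p = 0.421), and the difference between the effects in spleen and thymus, 1.15 ± 0.64 (SE), did not pass the test (adjusted p = 0.224). The rise of *Vdr* seen in spleen is therefore not shown to differ from thymus.

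*Rara* (ENSMUSG00000037992.16, chr11:98927818-98974942, plus strand) was among the more abundant receptors. Splenic WT Tregs held 92.9, 104, 104 and 104 CPM and splenic CD25 KO Tregs held 82.8, 79.98, 79.7 and 76.8 CPM, from 2101 to 2827 counts. All CD25 KO mice were below all WT mice, by a small margin: the mean fell by 21.1%, from 101 ± 5.57 to 79.8 ± 2.44 CPM (SD, n = 4), with a log2 fold change of -0.34 ± 0.053 (SE; edgeR adjusted p = 0.000329). Leaving out any mouse kept this call (log2 fold change -0.39 to -0.32), and the fit over all 18 libraries lost it (adjusted p = 0.112).

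In thymus, *Rara* was at 86.1, 95.5, 82.4, 89.5 and 92.1 CPM in WT and at 95.2, 81.4, 87.5, 86.6 and 47.1 CPM in CD25 KO. The groups overlapped, and mouse 5 of the CD25 KO group, the library with the lowest GC balance, stood far below the rest. The log2 fold change was -0.15 ± 0.14 (SE; edgeR adjusted p = 0.476). It was 0.01 with the GC correction and -0.01 without mouse 5. The difference between tissues, -0.18 ± 0.18 (SE; adjusted p = 0.511), became -0.32 and passed the test without that mouse (adjusted p = 0.00975). Of the 18 fits that leave out a mouse, this was the 1 in which the call changed. Over all settings the difference ran from -0.32 to -0.12. Whether the fall of *Rara* differs between spleen and thymus is thus not decided.

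*Rarg* (ENSMUSG00000001288.14, chr15:102234938-102257517, minus strand) was at 113, 131, 118 and 120 CPM in splenic WT and at 106, 108, 108 and 101 CPM in splenic CD25 KO. The groups did not overlap, but the gap was 1.04-fold and the log2 fold change, -0.19 ± 0.054 (SE), did not pass at FDR < 0.01 (edgeR adjusted p = 0.0232). In thymus it was at 96.3, 111, 71.0, 102 and 89.1 CPM in WT and at 109, 82.6, 96.5, 82.7 and 62.3 CPM in CD25 KO. There the groups overlapped almost entirely (log2 fold change -0.10 ± 0.14, SE; adjusted p = 0.620), and the value was 0.07 with the GC correction. The difference between tissues was -0.07 ± 0.17 (SE; adjusted p = 0.806).

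*Rxra* (ENSMUSG00000015846.14, chr2:27676440-27762957, plus strand) was at 21.5, 24.0, 21.2, 21.3 and 24.5 CPM in thymic WT and at 18.1, 19.04, 16.5, 16.7 and 10.3 CPM in thymic CD25 KO, from 196 to 573 counts. All 5 CD25 KO mice were below all WT mice, and mouse 5 was again the lowest. Means were 22.5 ± 1.60 for WT and 16.1 ± 3.41 CPM for CD25 KO (SD, n = 5). The log2 fold change of -0.46 ± 0.13 (SE) did not pass at FDR < 0.01 in edgeR (adjusted p = 0.0286), while DESeq2 (adjusted p = 0.00681) and the fit over all 18 libraries (adjusted p = 0.00355) called it. It was -0.34 without mouse 5 and -0.31 with the GC correction (adjusted p = 0.0710). B cell markers were lower in thymic CD25 KO too, at 59.6–77.2 CPM in sum against 108–138 in WT, with 2 of 4 tested called lower (*Ighd*, *Ighm*) and none called higher. Their part in the lower values of *Rxra* was not tested.

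In spleen, *Rxra* was at 44.1, 43.4, 45.7 and 51.0 CPM in WT and at 48.2, 46.9, 42.9 and 46.6 CPM in CD25 KO. The groups overlapped fully, with means of 46.1 ± 3.45 and 46.2 ± 2.27 CPM (SD, n = 4) and a log2 fold change of 0.0043 ± 0.064 (SE; edgeR adjusted p = 0.975). The effect in spleen minus that in thymus was 0.48 ± 0.16 (SE) and did not pass at FDR < 0.01 (adjusted p = 0.0452).

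*Rxrb* (ENSMUSG00000039656.16, chr17:34031812-34038399, plus strand) encodes the other RXR measured at a high level. Thymic values were 60.4, 71.4, 65.4, 62.5 and 61.8 CPM in WT and 65.9, 62.0, 67.7, 59.1 and 56.8 CPM in CD25 KO, and the groups overlapped (log2 fold change -0.03 ± 0.062, SE; edgeR adjusted p = 0.763). The sign of that value changed with upper-quartile scaling, to 0.0072, and with the GC correction, to 0.15. Splenic values were 52.4, 54.5, 57.9 and 56.6 CPM in WT and 50.5, 52.1, 50.6 and 47.3 CPM in CD25 KO. The groups did not overlap, yet the gap was 1.01-fold and the log2 fold change of -0.14 ± 0.055 (SE) did not pass (adjusted p = 0.0889). The difference between tissues was -0.10 ± 0.087 (SE; adjusted p = 0.460).

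**Figure D3:**
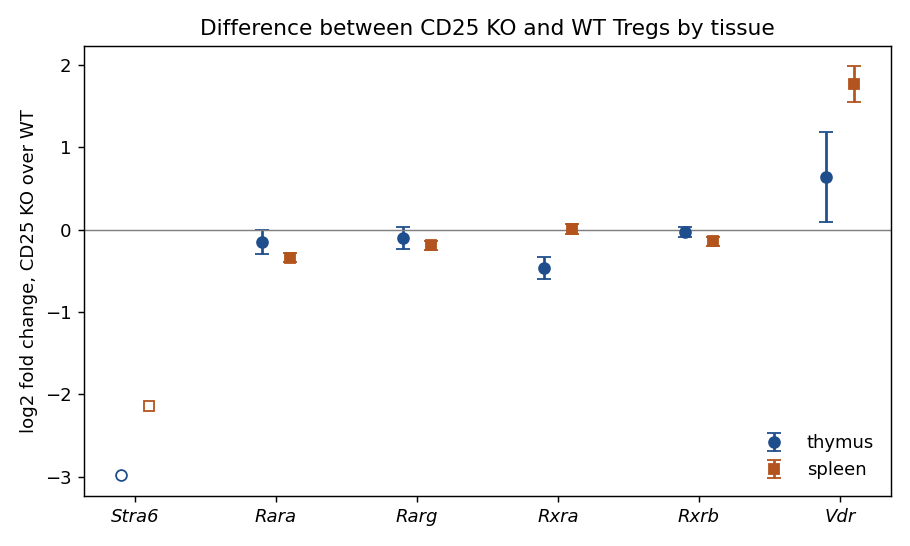
Log2 fold change of CD25 KO over WT (y axis) for each of the 6 genes (x axis) in thymus (circles) and spleen (squares). Bars are SE from edgeR. *Stra6*, at -2.98 and -2.14, is drawn as open symbols without an error because it was chosen by this value. Splenic *Vdr* at 1.76 and splenic *Rara* at -0.34 passed at FDR < 0.01.

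**Figure D4:**
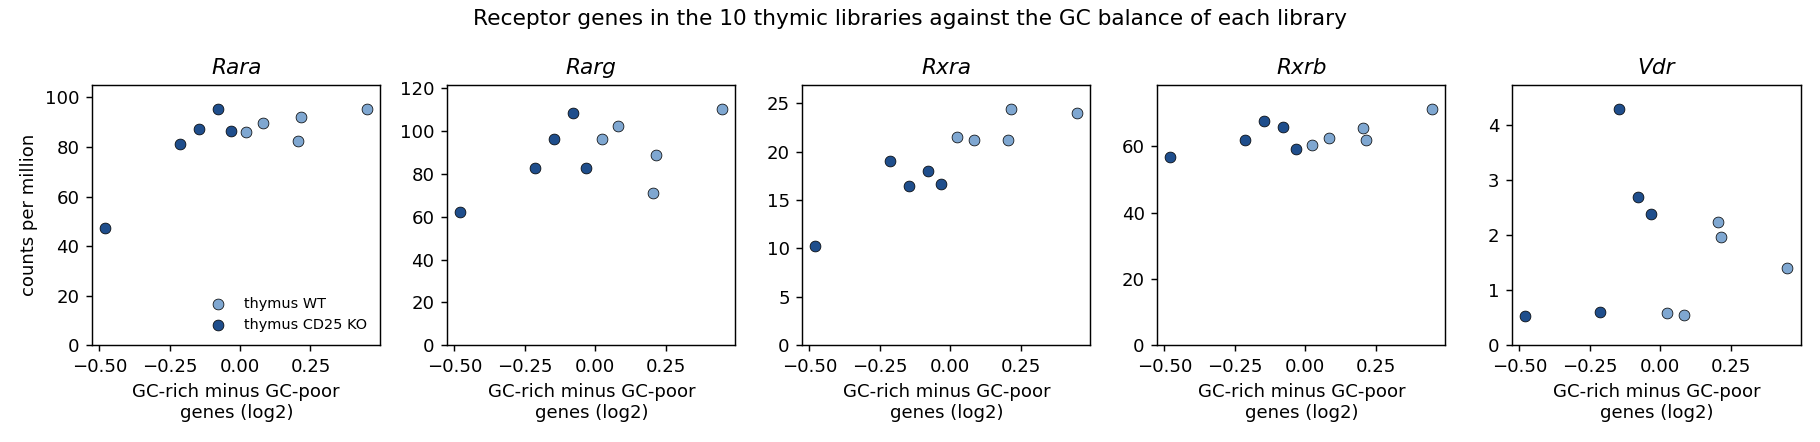
CPM of the 5 receptor genes (y axis, from 0) in the 10 thymic libraries against the GC balance of each library (x axis, log2, GC-rich minus GC-poor genes). WT libraries (light) lie at 0.02 or above and CD25 KO libraries (dark) at -0.03 or below, and the library at -0.48, CD25 KO mouse 5, has the lowest CPM of all 5 genes.

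Between tissues, 2 of the 5 receptor genes differed in WT Tregs by edgeR at FDR < 0.01, where 40.4% of 18686 genes did. *Rxra* was 46.1 ± 3.45 CPM in splenic and 22.5 ± 1.60 CPM in thymic WT Tregs (log2 difference 1.03 ± 0.11, SE; adjusted p = 2.08e-07), and the lowest splenic WT value, 43.4 CPM, lay above the highest thymic one, 24.5 CPM. *Rxrb* was lower in spleen, with 55.4 ± 2.41 against 64.3 ± 4.35 CPM (log2 difference -0.22 ± 0.061, SE; adjusted p = 0.00582). That call was lost in 4 of the 18 fits that leave out a mouse (adjusted p up to 0.0261). *Rarg* (0.36 ± 0.12, SE; adjusted p = 0.0170) and *Vdr* (1.22 ± 0.47, SE; adjusted p = 0.0345) were above 0 on the log2 scale without passing, and *Rara* was at 0.18 ± 0.12 (SE; adjusted p = 0.225). For *Stra6* the log2 difference was -0.38.

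To set the genes against each other, CPM were divided by the exonic length of each gene in kb. In WT Tregs of both tissues the order was *Rarg*, *Rara*, *Rxrb*, *Rxra*, *Stra6*, *Vdr*. In thymic WT, *Rarg* stood at 22.0 ± 3.53 CPM per kb, *Rara* at 20.4 ± 1.17, *Rxrb* at 16.2 ± 1.09, *Rxra* at 4.12 ± 0.29, *Stra6* at 1.45 ± 0.12 and *Vdr* at 0.239 ± 0.14 (SD, n = 5). Only *Rarg* and *Rara* overlapped there among neighbours in the order. In splenic WT the levels per length were 28.3 ± 1.79, 23.2 ± 1.28, 13.9 ± 0.61, 8.43 ± 0.63, 1.11 ± 0.14 and 0.558 ± 0.23 CPM per kb in the same order (SD, n = 4), and no neighbours overlapped. In CD25 KO the last 2 places were exchanged. *Vdr* stood at 1.90 ± 0.31 and *Stra6* at 0.251 ± 0.055 CPM per kb in splenic CD25 KO (SD, n = 4), without overlap. In thymic CD25 KO they stood at 0.372 ± 0.28 and 0.180 ± 0.071 (SD, n = 5), and their ranges overlapped.

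**Figure D5:**
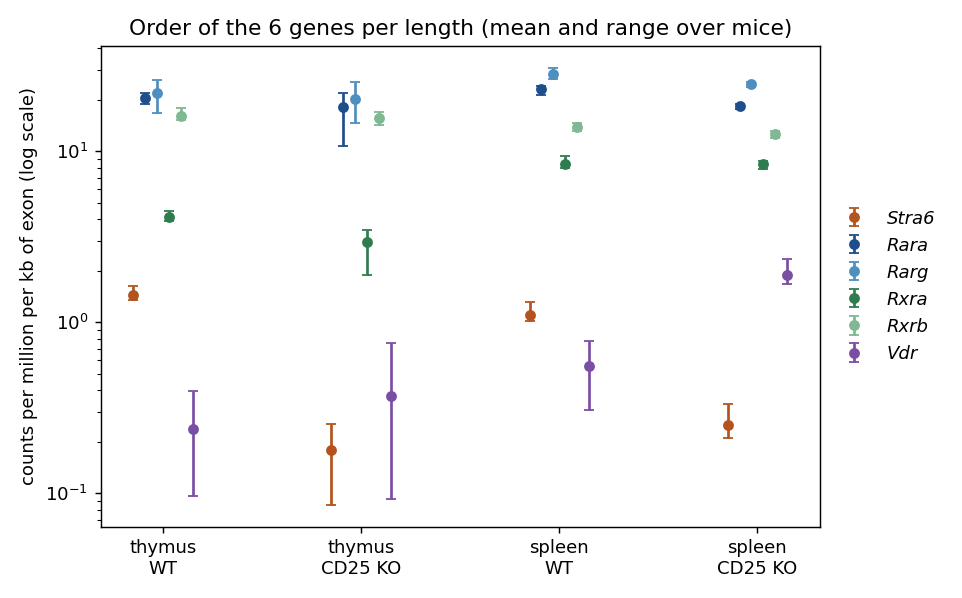
Mean CPM per kb of exon (y axis, log scale) of the 6 genes in each group (x axis), with bars from the lowest to the highest mouse (n = 5 in thymus, 4 in spleen). *Stra6* lies above *Vdr* in both WT groups and below it in both CD25 KO groups, with overlapping bars in thymic CD25 KO.

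The share of each receptor in its pair was also taken per exonic length, as a description. There, *Rxra* made up 19.1–22.4% of the sum of *Rxra* and *Rxrb* in thymic WT libraries and 11.6–18.3% in those of thymic CD25 KO. In splenic WT it made up 36.5–39.6%, and in splenic CD25 KO 38.1–41.7%. Of the sum of *Rara* and *Rarg*, *Rara* made up 45.7–53.1% (WT) and 42.5–50.5% (CD25 KO) in thymus, and 43.5–46.2% (WT) and 41.8–43.3% (CD25 KO) in spleen. The remaining family members were rarer. *Rarb*, the third retinoic acid receptor, stood at 10.2 ± 1.90 and 14.5 ± 2.79 CPM in thymus, WT first (SD, n = 5; log2 fold change 0.52, edgeR adjusted p = 0.0326, not called by edgeR and called by DESeq2), and at 8.99 ± 0.56 and 8.28 ± 1.00 CPM in spleen (SD, n = 4; adjusted p = 0.502). *Rxrg* had at most 1 count in any library.

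The other genes of these pathways were read from lists of 89 genes on retinoid transport and metabolism, nuclear receptors, their cofactors, and known retinoic acid and vitamin D targets. Of these, 55 were tested in thymus, with 2 called higher and 4 lower, or 10.9% against 6.16% of all genes, and 60 in spleen, with 4 called higher and 3 lower, or 11.7% against 9.45%. Their median log2 fold change was -0.02 in thymus and -0.04 in spleen, where the median of all genes tested was -0.0022 and -0.0065. Thymic calls of genes beyond the 6 are given without the GC correction. With it, 560 of the 1047 genes called in thymus were called again. Of 11 genes of retinoid uptake, binding and storage other than *Stra6*, 1 was tested in thymus and 2 in spleen, with 0 called by edgeR or DESeq2 and 1 in each tissue at an unadjusted p below 0.05, where 37.9% of all genes in thymus and 29.9% in spleen were below it. *Fabp5*, a fatty acid carrier that also binds retinoic acid, was at 15.1 ± 1.18 and 10.6 ± 2.60 CPM in thymus (SD, n = 5; adjusted p = 0.0380). *Rbp3*, *Rbp4*, *Crabp1*, *Ttr* and *Cyp24a1* had no count in any library, where a count of 0 allows up to 0.163 CPM (3 counts) in the least deep library.

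Of 22 enzymes of retinoic acid synthesis and breakdown, 12 were tested in thymus and 13 in spleen, and edgeR called 0 in both. At an unadjusted p below 0.05 there were 5 in thymus and 1 in spleen, against the same 37.9% and 29.9% of all genes. DESeq2 called 1 in thymus (*Retsat*, retinol saturase), where it called 16.3% of all genes, and 0 in spleen, where it called 12.3%. *Dhrs3*, which turns retinal back into retinol and is induced by retinoic acid, was at 7.06 ± 1.34 and 5.71 ± 1.39 CPM in thymus (SD, n = 5) and at 10.1 ± 1.22 and 9.19 ± 0.81 CPM in spleen (SD, n = 4). Among 13 retinoic acid target genes, 9 were tested in thymus, with *Itga4* called higher and *Asb2* and *Tgm2* lower, and 10 in spleen, with *Tgm2* called lower. Of all genes tested, edgeR called 6.16% in thymus and 9.45% in spleen. DESeq2 called 5 of the 9 in thymus, these 3 with *Itgb7* and *Rarb*, and the same 1 in spleen, against the same 16.3% and 12.3% of all genes. *Tgm2*, transglutaminase 2, fell in both tissues: from 1.36 ± 0.49 to 0.456 ± 0.19 CPM in thymus (SD, n = 5; log2 fold change -1.55, edgeR adjusted p = 0.00975) and from 6.08 ± 1.01 to 3.60 ± 0.71 CPM in spleen (SD, n = 4; log2 fold change -0.75, adjusted p = 0.00504). *Asb2*, a subunit of a ubiquitin ligase, fell in thymus from 1.94 ± 0.56 to 0.381 ± 0.28 CPM (SD, n = 5; log2 fold change -2.36, adjusted p = 0.00354) and was at 39.4 ± 9.96 and 50.9 ± 10.3 CPM in spleen (SD, n = 4; adjusted p = 0.120), a difference between tissues that passed (2.76, adjusted p = 0.000273). *Itga4*, the α4 integrin of gut homing, rose in thymus from 444 ± 82.6 to 738 ± 71.0 CPM (SD, n = 5; log2 fold change 0.75, adjusted p = 0.00248). Its gut-homing partner *Itgb7* stood at 352 ± 20.9 and 270 ± 35.9 CPM in thymus (SD, n = 5), lower in CD25 KO by DESeq2's call and not called by edgeR (adjusted p = 0.0126). *Ccr9*, a gut-homing receptor of the same list, was not called in either tissue. Its log2 fold change was 0.12 in thymus (edgeR adjusted p = 0.569) and -0.32 in spleen (edgeR adjusted p = 0.0637).

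On the vitamin D side, *Pdia3*, an endoplasmic reticulum disulfide isomerase, fell in thymus (log2 fold change -0.28, edgeR adjusted p = 0.00830) and stood at 0.22 in spleen (adjusted p = 0.0383), a difference between tissues that passed (0.52, adjusted p = 0.00135). Of 6 vitamin D target genes, 2 were tested in thymus, where *Trpv6*, a calcium channel, rose from 10.2 ± 0.85 to 15.3 ± 2.53 CPM (SD, n = 5; log2 fold change 0.60, adjusted p = 0.00522). It was the 1 called by edgeR there, where 6.16% of all genes were called. In spleen, where *Vdr* rose, 4 of the targets were tested. EdgeR called 1, *Spp1* (osteopontin), where it called 9.45% of all genes. DESeq2 called 2, *Spp1* higher and *Trpv6* lower, where it called 12.3% of all genes. *Spp1* went from 1–5 counts a library in WT to 14–62 in CD25 KO (edgeR adjusted p = 0.000913). *Trpv6* was at 9.58 ± 1.26 and 7.04 ± 0.41 CPM in spleen (SD, n = 4; log2 fold change -0.44, edgeR adjusted p = 0.0123), opposite in sign to thymus, and that difference between tissues passed (-1.03, adjusted p = 0.000332). *Cyp27b1*, which makes active vitamin D, was at 0.826 ± 0.28 and 0.464 ± 0.15 CPM in spleen (SD, n = 4; adjusted p = 0.119).

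Among 12 other nuclear receptors that pair with RXR, 0 of 8 tested were called by edgeR in thymus, with 3 at an unadjusted p below 0.05, where 37.9% of all genes were below it, and 1, *Thra*, called by DESeq2 (edgeR adjusted p = 0.0104), where it called 16.3% of all genes. In spleen, 3 of 10 were called by edgeR, against 9.45% of all genes, and the same 3 by DESeq2, against 12.3%. *Pparg*, a receptor for fatty acids, rose in spleen from 0.717 ± 0.20 to 2.69 ± 0.49 CPM (SD, n = 4; log2 fold change 1.90, adjusted p = 3.91e-05), and in thymus it had 2–11 counts in WT and 0–3 in CD25 KO, too few to pass the filter. In the fit of all 18 libraries its difference between tissues passed (4.59, edgeR adjusted p = 0.000166), from these low thymic counts. *Nr4a2*, an orphan receptor induced by T cell receptor signals, rose in spleen from 7.09 ± 0.63 to 10.9 ± 2.22 CPM (SD, n = 4; log2 fold change 0.62, adjusted p = 0.00456). It stood at -0.25 in thymus (edgeR adjusted p = 0.233), a difference between tissues that passed (0.89, adjusted p = 0.00888). *Thra*, the thyroid hormone receptor α, fell in spleen from 21.9 ± 0.87 to 14.6 ± 1.06 CPM (SD, n = 4; log2 fold change -0.58, adjusted p = 8.58e-05) and ran from 11.2 to 14.5 CPM for WT and from 8.29 to 10.8 CPM for CD25 KO in thymus. *Rora*, a retinoid-related orphan receptor, rose in spleen from 127.1 ± 16.2 to 173 ± 19.8 CPM (SD, n = 4; log2 fold change 0.45, adjusted p = 0.00247). Of 17 corepressors and coactivators, all were tested in both tissues. The coactivator *Ncoa3* fell in thymus (log2 fold change -0.39, adjusted p = 0.00734) and the acetyltransferase *Kat2b* fell in spleen (log2 fold change -0.25, adjusted p = 0.00777), and edgeR called no other gene of the list in either tissue. Of all genes, edgeR called 6.16% in thymus and 9.45% in spleen. DESeq2 called 3 of the 17 in each tissue, where it called 16.3% of all genes in thymus and 12.3% in spleen.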

How the data were processed

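RNA from sorted Tregs of 18 mice was sequenced in paired-end mode from ribosome-depleted libraries. The authors aligned reads to GRCm38 with STAR 2.5.0b and used featureCounts 1.5.0 on GENCODE M13 genes. They deposited raw counts, 1 column per mouse, with no normalization. The strand setting is not given in the sources used here. The thymic and splenic columns carry different run dates. Of 50600 identifiers, 50376 have a symbol in GENCODE M21, which is newer than M13 on an unchanged build. It also gave coordinates, exonic length and the GC content of the longest transcript. Promoter sequences are from RefSeq, GRCm38.p6.

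Counts were analysed in R 4.3.3 with edgeR 4.0.16. Within each tissue, genes were kept by filterByExpr, scaled by TMM, and compared by the quasi-likelihood test, two-sided, with Benjamini-Hochberg adjustment over all genes tested and FDR < 0.01, the study's threshold. Differences between CD25 KO and WT were compared between tissues, and WT spleen with WT thymus, in 1 fit of all 18 libraries. The standard error is the absolute log2 fold change over the root of F. The study's own tool, DESeq2 (1.42.0), was run as an alternative, beside other scalings, filters and thresholds, a GC correction (a spline of each library's log2 CPM on gene GC content, removed as an offset) and leaving out each mouse. The steps were tested on simulated data with changes planted only in genes of high count, so that test does not cover genes of low count. It set no minimum of recovered genes for the comparison of effects between tissues. The genes described and all gene lists were chosen with earlier results of these data known. Named genes are the 6 genes, *Il2ra* and *Foxp3*, list genes called in either tissue, neighbours of *Stra6* and the 5 genes nearest to it, and list genes added to describe a list are given with values only. Likeness to *Stra6* used log2 CPM with a prior count of 2. Python 3.11.15 was used for annotation and figures. Limits for a count of 0 cover counting error only. Some items are not reported here.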

Additional observations from a re-analysis of the deposited data

Results flagged for a closer look

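In the 24 sets of values given by the 6 genes in 4 groups, the highest or lowest mouse stood apart from the rest by Dixon's criterion at the 95% level in 2 sets, and chance alone gives about 1 in 20. In the first, *Rara* was at 47.1 CPM in thymic CD25 KO mouse 5, where the nearest of the other mice was at 81.4 CPM. The same library had the lowest GC balance. In the second, *Rara* was at 92.9 CPM in splenic WT mouse 1, where the nearest was at 103.6 CPM. Without that mouse the splenic fall of *Rara* was larger, with a log2 fold change of -0.39.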

How the results depend on the processing

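Precision was limited most for *Stra6* in CD25 KO and for thymic *Vdr*, each with libraries of 10 counts. In thymus, 1047 genes were called, against 2763 by DESeq2, 3951 at FDR < 0.05, 2881 in 1 fit of all 18 libraries, and 371 to 1087 when a mouse was left out (between 371 and 428 without WT mouse 2, 3 or 5 or CD25 KO mouse 1 or 3). With the GC correction, 752 genes were called in thymus, 560 of them among the 1047. Upper-quartile scaling turned the split of 539 higher and 508 lower into 808 and 440. Of the 5 receptor genes, DESeq2, FDR < 0.05 and the fit of all 18 libraries each called 1 in thymus. *Rxrb* in thymus changed sign, to 0.0072 with upper-quartile scaling, 0.149 with the GC correction and between -0.0598 and 0.0106 when a mouse was left out, and the GC correction also turned thymic *Rara* (0.0137) and *Rarg* (0.0657). In spleen, 1651 genes were called, against 3001 at FDR < 0.05, 795 in 1 fit of all 18 libraries and 1099 (without WT mouse 3) to 1723 when a mouse was left out. That fit of all libraries called 0 of the 5 receptor genes in spleen. Splenic *Rxra* was -0.0267 with upper-quartile scaling and -0.0239 to 0.057 when a mouse was left out. For the difference between tissues, 1305 genes were called, against 2188 by DESeq2, 3149 at FDR < 0.05 and 817 (without splenic CD25 KO mouse 2) to 1489 when a mouse was left out. The split of 840 higher and 465 lower became 616 and 669 with upper-quartile scaling and 674 and 659 with the GC correction. FDR < 0.05 called 1 receptor gene there, leaving out a mouse 0 to 1, and *Rarg* then ran from -0.171 to 0.0097. Between WT tissues, 2 receptor genes became 4 at FDR < 0.05 and 1 (without splenic WT mouse 1, 2 or 4) to 4 (without thymic CD25 KO mouse 5) when a mouse was left out. The cause of these changes was not tested.

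Labels number the thymic mice 1 to 5 in both genotypes. Deviations of same-numbered mice correlated between -0.24 and 0.14, above 0.1 in 1 of 5 pairs, and 1 of 5 WT mice correlated best with its own number, so the numbers were not taken as pairs. With the replicate block, 209 genes were called in thymus, and 241 with the block and the GC correction together, where *Rarg* was 0.0653 and *Rxrb* 0.147. The block called none of the 5 receptor genes. Labels of the splenic mice carry no shared number.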
